A study of Mus musculus with 2 samples.

Results

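Within the biliary epithelial cells of mouse liver, 747 of 6220 kept cells (of 6362 deposited) carried the highest combined level of Ly6a, Cd14, Cxcl5, Kcnn4 and Sgcd, and these cells are described here. They were chosen by a score measured in the same data. The score was the summed UMIs (unique molecular identifiers, each standing for 1 counted transcript) of the 5 genes divided by all UMIs of the cell. Members were the cells in the top 12% of the score over both libraries, with at least 3 UMIs of the 5 genes. The levels of the 5 genes in members are therefore descriptions of the choice and not findings. On the scale of CPM (UMIs per 1000000 UMIs of the same cells), the lowest-scoring 10 members lay at 2912 to 2930, and the 10 cells just outside at 2894 to 2910. The median score was 4037 CPM in members and 690 in the remaining cells, and the median member had 13 UMIs of the 5 genes. A percentile cut through many cells leaves near values on its sides, so these values do not show whether the members stand apart. The members are described as a range of a score, and whether they are a separate cell type was not tested.

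The cells came from 2 libraries of biliary epithelial cells from mouse liver, 1 with the genotype label Sox9cKO and 1 with Sox9con. The series describes them as Sox9cKO and control cells, and Sox9 is a transcription factor of the biliary epithelium. The driver of the deletion, the strain, age and number of animals are not given in the labels used here, and no treatment is named. With 1 library a group, no difference between members and remaining cells or between libraries has a replicate check, no test was made and no p-value is given. Intervals are exact 95% intervals and cover counting error only.

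Biliary epithelial cells line the bile ducts, modify bile and can secrete chemokines when the duct is exposed to bacterial products or injury. Cxcl5 is a chemokine that attracts neutrophils, and Cd14 is a co-receptor that hands lipopolysaccharide to toll-like receptors. Ly6a, also called Sca-1, is a glycolipid-anchored surface protein often used as a marker of progenitor-like cells. Kcnn4 is a calcium-activated potassium channel, and Sgcd encodes delta-sarcoglycan, a subunit of a membrane complex linked to dystrophin. The toll-like receptors signal through NF-kB, a family of transcription factors held in the cytoplasm until the cell is stimulated. Among the genes that NF-kB is known to induce are Cxcl1, Cxcl2, Ccl20, Lcn2 and Tnfaip2.

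The kept cells held 14794895 UMIs in Sox9cKO and 12613570 in Sox9con, with medians of 5041 and 3203 UMIs a cell. The cells of each library lay in first-round barcoding wells of their own, 5 for Sox9cKO and 4 for Sox9con, so that well and library cannot be told apart. No cell barcode was shared. In members Sox9 stood at 81.7 CPM in Sox9con and at 112 CPM in Sox9cKO. In the remaining cells it stood at 151 and 120 CPM. Sox9 was thus not lower in the members labelled Sox9cKO than in those labelled Sox9con, and the libraries are called by their labels throughout.

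Members made up 587 of 3507 kept cells in the library labelled Sox9con, or 16.7% (15.5 to 18.02). In the library labelled Sox9cKO they made up 160 of 2713 cells, or 5.90% (5.04 to 6.85). The wells of the 2 libraries overlapped. Among the Sox9con wells the share was 8.34% in D9, 17.3% in D10, 17.9% in D12 and 23.6% in D11. Among the Sox9cKO wells it was 3.25% in A12, 4.73% in B3, 5.28% in B2, 6.32% in B1 and 9.86% in A11. Well D9 was thus below well A11, while D10, D11 and D12 were above all 5 Sox9cKO wells. Over the 8 sublibraries, each of which held cells of both libraries, the share was 14.5% to 19.7% in Sox9con and 4.50% to 7.36% in Sox9cKO. The sublibraries are technical splits of the same 2 libraries, so this spread is technical and they are not replicates. Without well D9 the Sox9con share was 19.5%, and without A11 the Sox9cKO share was 4.85%.

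Depth moved with the share. The well with most members, D11, was the shallowest of its library with a median of 2368 UMIs a cell, and D9 was the deepest with 4295. Among the Sox9cKO wells A11 was the shallowest at 3491.5 UMIs and A12, with fewest members, the deepest at 6431. With every cell thinned to 2000 UMIs and members chosen again, the shares were 17.02% of 2891 Sox9con cells (15.7 to 18.4) and 8.06% of 2544 Sox9cKO cells (7.03 to 9.18). Thinning left out 616 and 169 shallower cells, and in the cells it kept the shares before thinning were 15.7% and 6.01%. The order of the libraries was the same at equal depth, but the cells chosen changed. Of the 492 thinned Sox9con members 382 had been members before thinning (77.6%), and of the 205 thinned Sox9cKO members 125 (61.0%).

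**Figure D1:**
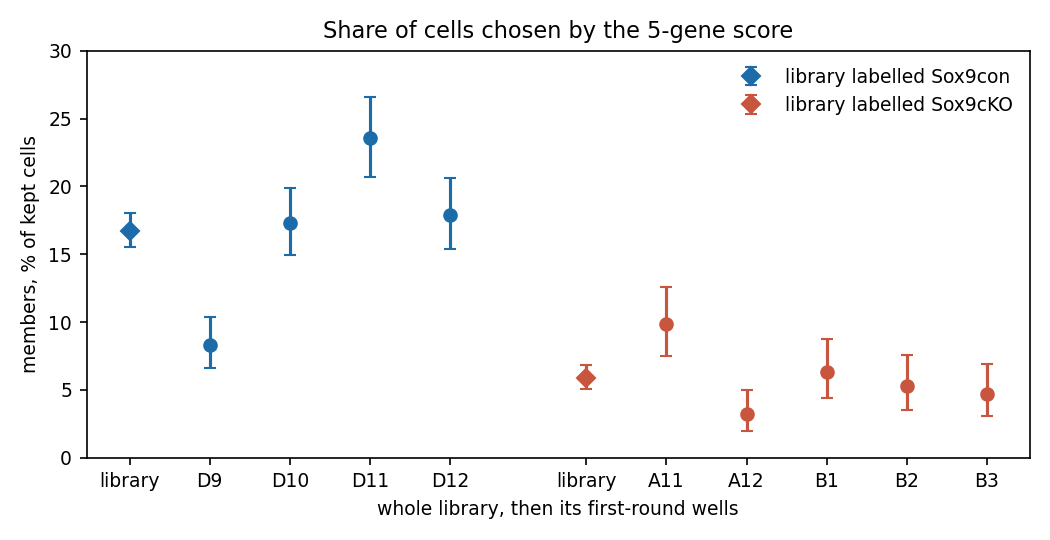
Members as a percentage of kept cells (y axis) for each whole library (diamonds) and each of its first-round wells (circles), with exact 95% binomial intervals. The Sox9con library lies at 16.7% and the Sox9cKO library at 5.90%, and well D9 (8.34%) lies below well A11 (9.86%).

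Cxcl5 carried most of the score. In the Sox9con library Cxcl5 stood at 2219 CPM in members and 139 in remaining cells, and in the Sox9cKO library at 2420 and 260 CPM. It supplied 46.6% of the members' score UMIs in Sox9con and 63.3% in Sox9cKO, and had the most UMIs of the 5 genes in 54.0% and 76.25% of members. Cd14 came next, at 1224 against 303 CPM in Sox9con and 928 against 269 in Sox9cKO. The other genes differed in level between the libraries. Kcnn4 stood at 905 CPM in Sox9con members and 334 in Sox9cKO members, and Ly6a at 301 and 72.6 CPM. Well D9 stood apart for Ly6a, with 118 CPM in its members against 314 to 376 CPM in the other Sox9con wells. Sgcd was the lowest of the 5, at 108 and 68.9 CPM. A Ly6a UMI was found in 45.7% of Sox9con members and 21.9% of Sox9cKO members, at median depths of 2753 and 4858.5 UMIs. The members of the Sox9cKO library were therefore mainly Cxcl5 and Cd14 cells.

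Such shares were also read in cells marked by endothelial genes. A Cxcl5 UMI was found in 7.48% of 147 such remaining Sox9con cells and 8.33% of 96 such remaining Sox9cKO cells. Their median depths were 2409 and 2658 UMIs. The 4 endothelial-marked Sox9con members were not counted there. Whether these Cxcl5 UMIs were free RNA or made by those cells was not tested. In all remaining cells the shares were 19.1% and 34.2%. In members they were 78.4% and 96.25%, which follows from the choice, since Cxcl5 is a gene of the score. Ly6a is also expressed by endothelial cells, so it was not compared with them.

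Each gene was also read in cells chosen by the other 4, with the same top 12% and 3 UMIs. The 5 genes were picked with earlier results of these data known, so these values describe how they go together here and do not test it. Cxcl5 stood at 1047 CPM in Sox9con cells chosen without it and at 317 CPM in the others, a log2 ratio of 1.72 (1.64 to 1.80). In Sox9cKO it stood at 816 and 369 CPM, a log2 ratio of 1.15 (0.96 to 1.33). That value rested on 77 chosen cells, and Cxcl5 was higher in all 4 Sox9con wells but in 4 of 5 Sox9cKO wells. Cd14 was higher by 1.26 (1.18 to 1.35) in Sox9con and 1.08 (0.95 to 1.21) in Sox9cKO, and in each of the 9 wells. Ly6a was higher by 0.71 in Sox9con and 0.70 in Sox9cKO, and Kcnn4 by 0.73 and 0.23. Sgcd was the weakest, at 0.30 (-0.0007 to 0.60) in Sox9con and 0.51 (0.0051 to 0.98) in Sox9cKO, and was higher in 3 of 4 and 2 of 5 wells. Of the 5 genes, 2 (Cxcl5 and Cd14) were at least 2-fold higher in both libraries when they took no part in the choice, and 1 was when well A11 was left out.

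The members had biliary markers within 2-fold of the other cells. The 14 markers summed to 20810 CPM in Sox9con members against 17185 in remaining cells, and to 12265 against 10950 in Sox9cKO. The sum was higher in members in all 4 Sox9con and all 5 Sox9cKO wells. Of the 14 markers, 0 were at least 2-fold apart in either library. Few tested genes were: 0.528% were higher and 3.28% lower in Sox9con, and 0.647% and 4.45% in Sox9cKO. The list's median log2 ratio was 0.02 in Sox9con and -0.07 in Sox9cKO. The median over all genes tested was 0.05 and -0.00. Epcam, an adhesion protein of epithelia, stood at 1323 CPM in Sox9con members and 857 in Sox9cKO members, against 1063 and 806 in remaining cells. Spp1, which encodes the secreted protein osteopontin, stood at 5692 against 3727 CPM in Sox9con and 3179 against 1983 in Sox9cKO. Its log2 ratios were 0.61 and 0.68, and it was higher in members in all 9 wells. Such agreement was common: of 7103 tested Sox9con genes under 2-fold apart, 31.8% went 1 direction in all 4 Sox9con wells. Tm4sf4, a tetraspanin-like membrane protein, was at 331 against 508 CPM in Sox9cKO and 991 against 1051 in Sox9con.

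Sox9 differed most among these markers in the Sox9con library. It stood at 61.2, 68.3, 102 and 108 CPM in members of wells D10, D11, D12 and D9, and at 98.3, 74.7, 157 and 221 CPM in the remaining cells of the same wells. It was lower in members in each of the 4 wells, by 0.13 to 1.04 on the log2 scale. Pooled over wells the log2 ratio was -0.89 (-1.15 to -0.64), and without well D9, where Sox9 was highest and members fewest, it was -0.58. In the Sox9cKO library it was -0.10 (-0.42 to 0.20). The part of the wells in this difference was not tested beyond these values.

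Endothelial and mesenchymal markers were lower in members than in the remaining cells, and neutrophil and lymphocyte markers were scarce in both. The hepatocyte, mesothelial and macrophage lists stood near the level of the remaining cells. Hepatocyte markers summed to 893 CPM in Sox9con members and 1511 in Sox9cKO members, against 982 and 1469 in remaining cells. Mesothelial markers summed to 42.8 and 32.0 CPM in members, against 36.7 and 31.8. Macrophage markers summed to 24.0 and 30.7 CPM in members, against 23.0 and 33.4. The summed level of 13 endothelial markers was 19.1 to 64.5 CPM over the Sox9con wells in members and 358 to 530 in remaining cells. In Sox9cKO it was 35.7 to 57.9 CPM against 230 to 375. Among macrophage markers Clec4f, C1qa and Tyrobp were at 0 in members of both libraries, and only Csf1r had more than 1 UMI. The 8 neutrophil markers had 0 UMIs in Sox9con members and 1 in Sox9cKO members. They summed to 0 and 1.23 CPM in members, against 1.01 and 0.79 CPM in remaining cells. Of 10 lymphocyte markers, 5 were at 0 in Sox9con members and 8 in Sox9cKO members. The list summed to 4.57 and 2.46 CPM in members, against 3.59 and 4.43 CPM in remaining cells. Mesenchymal markers summed to 168 CPM in Sox9con members and 162 in Sox9cKO members, nearly all from Reln, against 228 and 259 CPM in remaining cells. Cells were marked as another class by at least 3 UMIs of 1 of these lists, the hepatocyte list left out. The UMIs had to make up at least 0.1% of the cell's UMIs. Such cells were 4.77% of Sox9con members and 9.76% of remaining cells, and 5.625% and 10.2% in Sox9cKO.

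Genes outside the score were then compared between members and the remaining cells of the same library, on UMIs summed over cells. Members were shallower than the remaining cells, with medians of 2753 and 3309.5 UMIs in Sox9con and 4858.5 and 5075 in Sox9cKO. A gene was tested when it had at least 200 UMIs in the library and counted when it was at least 2-fold apart. In Sox9con 39 of 7384 genes were higher in members, 0.528% of those tested, and 242 were lower, 3.28%. In Sox9cKO 49 of 7573 were higher (0.647%) and 337 lower (4.45%). Of 7085 genes tested in both libraries, 17 were at least 2-fold higher in both (0.24%) and 117 at least 2-fold lower in both (1.65%). Of the 37 genes higher in Sox9con that were also tested in Sox9cKO, 35 were above 0 in Sox9cKO. Of the 208 genes lower in Sox9con that were also tested in Sox9cKO, 197 were below 0 in Sox9cKO. Over all 7085 genes tested in both libraries, the log2 ratios had a Pearson correlation of 0.67, so a shared direction was not particular to the higher genes. Members of both libraries were chosen by the same score, so these counts are a description and not a replicate check.

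Csf3 had the highest ratio in Sox9con. Csf3, the growth factor of neutrophils (G-CSF), stood at 100, 107, 126 and 102 CPM in members of wells D9, D10, D11 and D12, and at 17.5, 7.42, 19.5 and 27.9 CPM in the remaining cells there. In wells A11, A12, B1, B2 and B3 it stood at 419, 208, 219, 159 and 408 CPM in members and at 46.0, 66.5, 65.7, 62.7 and 55.1 CPM in remaining cells. Members and remaining cells did not overlap between wells in either library. The log2 ratio of Csf3 was 2.61 (2.32 to 2.91) in Sox9con and 2.28 (2.07 to 2.49) in Sox9cKO. Csf3 was a gene of few cells, with a UMI in 11.1% of Sox9con and 30.6% of Sox9cKO members. In endothelial-marked cells the shares were 4.08% and 7.29%, at 33.2 and 83.1 CPM, on 15 and 26 UMIs. Whether these UMIs were free RNA or made by those cells was not tested. In the remaining cells the shares were 2.95% and 10.2%, at 17.9 and 60.4 CPM.

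Lcn2, which encodes lipocalin-2, a protein that withholds iron from bacteria, ranged over wells from 463 to 694 CPM in Sox9con members and from 101 to 143 CPM in remaining cells. In Sox9cKO it ranged from 867 to 1497 CPM in members and from 272 to 409 CPM in remaining cells. Its log2 ratios were 2.34 (2.22 to 2.45) and 1.70 (1.59 to 1.80). Tnfaip2, a gene induced by tumour necrosis factor, was higher in members as well. It stood at 1262 to 1463 CPM over Sox9con wells in members and at 320 to 412 CPM in remaining cells, with 2388 to 2920 CPM against 857 to 955 CPM in Sox9cKO. Its log2 ratios were 1.93 (1.853 to 1.998) and 1.58 (1.51 to 1.64). For Lcn2 and Tnfaip2, members of every well lay above the remaining cells of every well of the same library. One direction in all Sox9con wells was also found for 31.8% of the tested genes under 2-fold apart there.

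The chemokine relatives of Cxcl5 were high in the same cells. Cxcl1, Cxcl2 and Cxcl3 are neutrophil attractants whose genes lie near Cxcl5 in 1 cluster. Cxcl2 stood at 2053 CPM in Sox9con members and 699 in remaining cells, and at 2375 and 851 CPM in Sox9cKO, with log2 ratios of 1.55 (1.496 to 1.61) and 1.48 (1.41 to 1.55). Cxcl1 stood at 1986 against 846 CPM in Sox9con and 1546 against 718 in Sox9cKO, with ratios of 1.23 and 1.11. Cxcl3 was rarer, at 78.2 against 25.7 and 118 against 51.6 CPM, with ratios of 1.60 and 1.19. Ccl20, which attracts cells carrying the receptor CCR6, had ratios of 1.57 (1.22 to 1.93) and 1.24 (0.73 to 1.72). It was above 0 in all 4 Sox9con wells and in 4 of 5 Sox9cKO wells. The members of well B3 had no Ccl20 UMI.

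The other genes at least 2-fold higher in both libraries were Mab21l3, Tnfsf10, Rasal1, Nos2, Dio3, Ptgs2, Gm16685, Eva1a, Ier3 and Pdzrn3. Tnfsf10 encodes the death ligand TRAIL, with log2 ratios of 1.65 in Sox9con and 1.01 in Sox9cKO. Nos2, the inducible nitric oxide synthase, had ratios of 1.27 and 1.56, and Ptgs2, the inducible cyclooxygenase, 1.15 and 1.43. Rasal1, a Ras GTPase-activating protein, had 1.42 and 1.31, and Dio3, a deiodinase that inactivates thyroid hormone, 1.22 and 1.02. Ier3, an immediate early gene, had 1.07 and 1.002. Mab21l3 stood at 60.0 against 18.3 CPM in Sox9con and 188 against 60.9 in Sox9cKO, with ratios of 1.71 and 1.63. Nos2 and Ptgs2 varied widely between wells. In Sox9cKO the Nos2 ratio ran from -0.33 to 2.82 and the Ptgs2 ratio from -0.56 to 2.71. With Cxcl5 left out of the score, 6 genes in place of 17 were at least 2-fold higher in both libraries. In Sox9con the ratio of Nos2 was then -0.20, that of Csf3 1.35, Mab21l3 0.99 and Rasal1 0.97. In Sox9cKO that of Ccl20 was 0.35, Tnfsf10 0.55, Nos2 0.68, Cxcl3 0.69, Rasal1 0.80 and Lcn2 0.99, all under 2-fold. Csf3 in Sox9cKO, at 1.97, and Cxcl2, at 1.30 and 1.23, were still over 2-fold.

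Kctd1 and Cd46 were among the 12 highest genes of the Sox9con library as well. Kctd1, a protein with a potassium channel tetramerisation domain, had log2 ratios of 1.55 in Sox9con and 0.99 in Sox9cKO. Cd46, a complement regulator, had 1.24 (0.93 to 1.54) in Sox9con and 0.01 (-0.85 to 0.76) in Sox9cKO. It stood at 72.0 against 30.5 CPM in Sox9con and at 18.4 against 18.3 CPM in Sox9cKO, where members held 15 of its UMIs. The difference between the libraries was not tested.

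**Figure D2:**
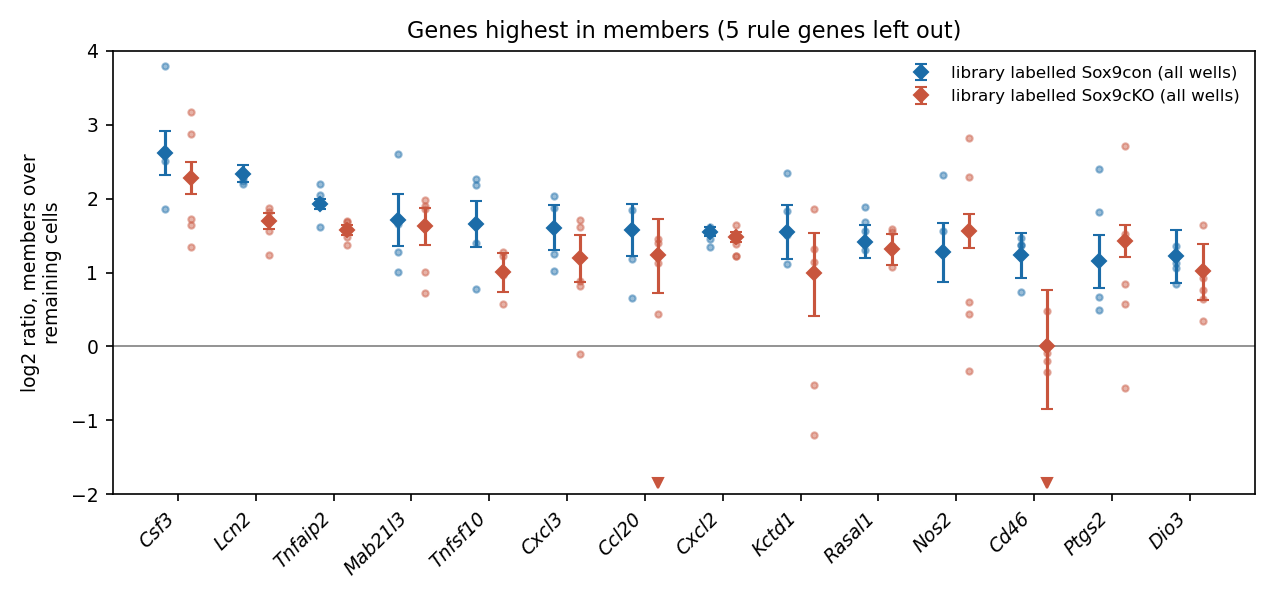
Log2 ratio of summed UMIs in members over remaining cells (y axis) for the genes with the highest ratios, per library (diamonds with exact 95% counting intervals) and per first-round well (small points). Triangles at the lower edge are wells whose members had no UMI of the gene, as for Ccl20 and Cd46 in well B3.

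The promoters of the genes higher in both libraries are shown because several of these genes are known targets of NF-kB. RefSeq promoters (GRCm38.p6, 250 bases before to 50 after the start site) were listed for 13 of the 17 genes. The letters GGNNTTTCC, the core of the NF-kB motif, were searched on both strands, where N is any base. They were present in 6 of 13 promoters (46.2%), against 7.60% of 5642 promoters of genes tested in both libraries and 8.79% of 91 promoters of genes lower in both. Over all 32851 listed promoters the share was 5.82%. The motif was picked after the genes were known, so the shares are a description. The stretches around the matches follow, 5′ to 3′ on the strand of the gene, with the matches in capitals. All 6 genes lie on the plus strand, and a match written GGAAA is the motif on the opposite strand.
Tnfaip2: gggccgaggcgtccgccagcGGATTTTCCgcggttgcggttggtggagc
Cxcl1: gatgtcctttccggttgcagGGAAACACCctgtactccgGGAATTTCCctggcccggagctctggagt
Cxcl2: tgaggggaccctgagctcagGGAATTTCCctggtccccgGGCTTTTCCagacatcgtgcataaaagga
Cxcl3: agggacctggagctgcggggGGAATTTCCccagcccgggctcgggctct
Ccl20: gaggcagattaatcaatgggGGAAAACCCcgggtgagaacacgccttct
Ier3: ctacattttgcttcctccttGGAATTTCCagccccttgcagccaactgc
The stretches lie at chr12:111442554-111442602, chr5:90891136-90891203, chr5:90903783-90903850, chr5:90786009-90786057, chr1:83116666-83116714 and chr17:35821554-35821602, in that order. In Tnfaip2, Cxcl1, Cxcl2, Cxcl3 and Ccl20 the first match began at -87, -89, -96, -72 and -80 from the start site, and in Ier3 at -139. Cxcl1, Cxcl2 and Cxcl3 are related genes of 1 region of chromosome 5, so their promoters are not independent examples. The promoters of Lcn2, Ptgs2, Mab21l3, Tnfsf10, Eva1a, Pdzrn3 and Dio3 held no match to these letters in this window.

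Beyond the single genes, the chemokine list had 4 of 9 tested genes at least 2-fold higher in Sox9con members and 4 of 10 in Sox9cKO members, and 0 lower, where 0.528% and 0.647% of all tested genes were higher. Its median log2 ratio was 0.76 and 0.49. Cxcl16, a membrane-bound chemokine, had 0.76 and 0.44, while the interferon-induced Cxcl10 had -0.17 and -0.23 over all cells, but 0.47 (0.23 to 0.70) and 0.64 (0.12 to 1.13) when only clusters holding members were compared. Of the list of inflammatory response genes and NF-kB targets, 7 of 21 were at least 2-fold higher in Sox9con and 4 of 22 in Sox9cKO, with medians of 0.74 and 0.51. Csf1, the macrophage growth factor, had 1.07 and 0.95, and Vcam1, an adhesion molecule for leukocytes, 0.95 and 0.76. C3, the central complement protein, had 0.98 in Sox9con and 0.40 in Sox9cKO, and Tnf, tumour necrosis factor, 1.17 and 0.42. Below 0 were 2 genes of the list in Sox9con and 4 in Sox9cKO, and of these Il1a alone was past 2-fold. Il1a, a cytokine of the interleukin-1 family, had 3 UMIs in Sox9cKO members and a ratio of -1.95 (-4.26 to -0.40). The acute phase genes Saa1, Saa2 and Saa3 had 0 UMIs in members of both libraries. These lists were chosen with earlier results of the same data known.

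Of the toll-like receptor pathway, 0 of 14 tested genes in Sox9con and 0 of 13 in Sox9cKO were at least 2-fold apart, with medians of 0.15 and 0.20. Tlr2, a receptor for bacterial lipoproteins, had just under 200 UMIs in each library and was not among them. It stood at 25.7 against 13.8 CPM in Sox9con and 28.3 against 11.9 in Sox9cKO, with log2 ratios of 0.89 (0.38 to 1.39) and 1.25 (0.56 to 1.89). Tlr4, the lipopolysaccharide receptor that works with Cd14, had log2 ratios of 0.11 and 0.50. Irak2, a kinase of the same signalling path, had 0.63 and 0.89. Nfkb1 and Rela, the subunits of NF-kB, had 0.11 and 0.19 in Sox9con and 0.03 and -0.28 in Sox9cKO, while Nfkbia, the inhibitor that NF-kB induces, had 0.49 and 0.39. Interferon response genes had medians of 0.21 and 0.05. Among them 0 of 14 were higher in Sox9con, where the regulator Nlrc5 was lower at -1.05 (-0.80 without cells marked as another class), and 1 of 12 in Sox9cKO, Psmb8, a subunit of the immunoproteasome, at 1.06.

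Of the Ly6 relatives of Ly6a, 3 were tested. Ly6e had 0.24 and 0.00, and Ly6m was lower in both libraries, at 13.7 against 34.8 CPM in Sox9con and with 1 member UMI in Sox9cKO. Ly6d had -0.68 (-0.97 to -0.41) in Sox9con and 0.59 (0.39 to 0.78) in Sox9cKO over all cells, but 0.80 and 0.66 when only clusters holding members were compared. Channels of bile secretion had medians of -0.50 and -0.11. Ano1, a calcium-activated chloride channel, stood at 396 against 606 CPM in Sox9con and 289 against 606 in Sox9cKO, with ratios of -0.61 and -1.07. The water channel Aqp1 had 6 UMIs in Sox9con members, at 3.43 against 37.5 CPM, and 0 in Sox9cKO members, at least 3.22-fold lower. Slc12a2, the sodium, potassium and chloride importer, was on the other side at 0.63 and 0.81. Of the dystrophin complex, 1 of 9 and 1 of 10 genes were at least 2-fold lower, Sntb1 in both, with medians of -0.15 and -0.03. Without cells marked as another class Sntb1 had -0.56 and -0.93.

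Among the lower genes were endothelial genes, of which 9 of 9 tested in Sox9con and 6 of 7 in Sox9cKO were at least 2-fold lower, where 3.28% and 4.45% of all tested genes were lower. Endothelial-marked cells numbered 147 among the remaining cells and 4 among members in Sox9con, and 96 and 0 in Sox9cKO. Without cells marked as another class 2 of these genes were lower in Sox9con, and 3 were lower and 1 higher in Sox9cKO. Selp had 0 UMIs in members of both libraries and was at least 12.9-fold lower in Sox9con and at least 3.72-fold lower in Sox9cKO. The mucin gene Muc6 had 3 UMIs among Sox9con members, at 1.71 against 77.8 CPM, and 0 among Sox9cKO members, at least 6.28-fold lower. Bcl11a, a transcription factor, and Capn13, a calpain, had 3 and 5 UMIs in Sox9con members and 1 each in Sox9cKO members. Another mucin gene, Muc4, stood at 17.1 against 107 CPM in Sox9con and 54.1 against 140 in Sox9cKO. Areg, the growth factor amphiregulin, had log2 ratios of -2.01 and -3.07.

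Of 17 immediate early and heat shock genes, 7 in Sox9con and 8 in Sox9cKO were at least 2-fold lower in members, with medians of -0.65 and -0.72. Fos stood at 133 against 383 CPM in Sox9con and 101 against 383 in Sox9cKO, with ratios of -1.53 and -1.92, and was lower in all 9 wells. Atf3 had -1.83 and -2.27, and the chaperone Hspa1a -2.34 and -2.67. Such genes are known to be induced while tissue is dissociated, and the part of dissociation here was not tested. YAP and TEAD targets had medians of -0.28 and -0.41. Among them Ccn1 stood at 397 against 798 CPM and 262 against 621 CPM, and Ankrd1 had -0.96 in both libraries, while Arhgef17 was higher at 1.01 and 0.93. Genes of regenerating epithelium had medians of 0.23 and 0.14, with Areg the only 1 of 12 and of 13 at least 2-fold apart.

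To see where in the libraries the members lay, each library was clustered with the 5 score genes left out. Members did not form a cluster. In Sox9con, 49.2% of members lay in a cluster led by Ncam1, Aldh1a2 and Lcn2, where 31.4% of 921 cells were members (28.4 to 34.5). A further 34.1% lay in a cluster led by Msln, Car4 and Tff2, of which 25.8% of 774 cells were members, and 14.7% in a cluster led by Ankrd1, Rnd1 and Adgrv1. The leading genes of the Ncam1 cluster also included Csf3, Rasal1, Tnfaip2, C3 and Ptgs2, although most of its cells were not members. The cluster led by Muc6 and Bcl11a held 9 members among 370 cells, and that led by Mmp25, Dnah12 and Hspa1a 1 among 337. The endothelial cluster led by Selp and Cdh5 held 0 among 115. In Sox9cKO, 43.1% of members lay in a cluster led by Slit3, Dio3 and Aff2 and 33.75% in one led by Ces1c, Ltb and Steap4, with 13.0% of 531 and 16.3% of 332 cells as members. The Sox9cKO cluster led by Hspa1a and Fos held 0 members among 240 cells, and that led by Muc6 1 among 359.

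**Figure D3:**
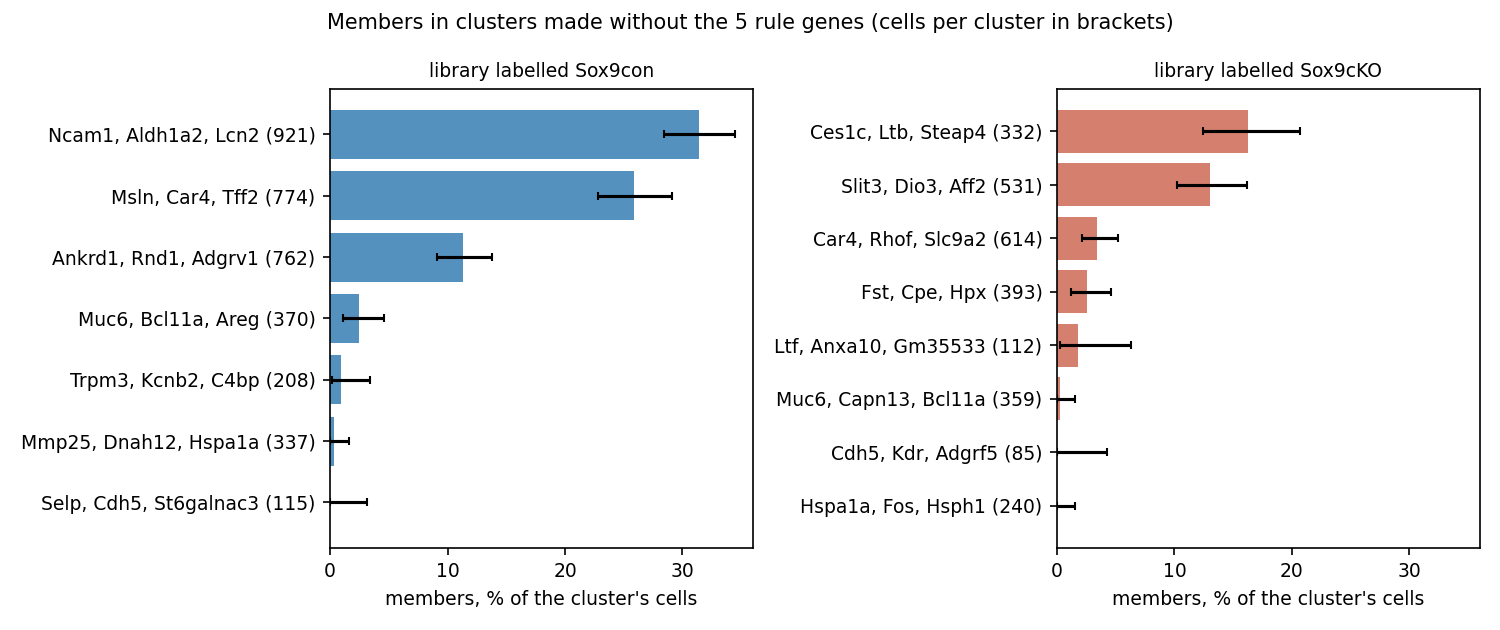
Bars give members as a percentage of the cells of each cluster (x axis) with exact 95% binomial intervals, for clusters of at least 50 cells made in each library without the 5 score genes and named by their 3 leading genes. Members reach 31.4% of the Ncam1, Aldh1a2 and Lcn2 cluster and are at or near 0 in the Muc6, Hspa1a and endothelial clusters.

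Members were then compared only with cells of the clusters that held at least 10% of members, 3 in each library. These held 575 of 587 Sox9con members (98.0%) and 64.5% of the remaining cells, and 144 of 160 Sox9cKO members (90.0%) and 52.2% of the remaining cells. Within them 11 of 6068 tested genes were at least 2-fold higher in Sox9con members (0.181%) and 32 lower (0.527%). In Sox9cKO 15 of 5624 were higher (0.267%) and 73 lower (1.3%). This comparison was added after the first values were seen, and the clusters were made from the same genes, so its values are a description.

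Csf3 and Lcn2 were still over 2-fold higher inside these clusters. Csf3 had log2 ratios of 2.16 in Sox9con and 1.75 in Sox9cKO, Lcn2 1.78 and 1.41, Tnfaip2 1.34 and 1.09, and Cxcl2 0.97 and 1.18. At least 2-fold higher were 1 of 8 chemokines in Sox9con and 1 of 7 in Sox9cKO. The medians of the chemokine list were 0.62 and 0.64, in place of 0.996 and 0.54 for the same genes over all cells, and those of the inflammatory list 0.47 and 0.41, in place of 0.84 and 0.59. The immediate early genes were nearer to the remaining cells. Fos had -0.12 (-0.34 to 0.09) in Sox9con and 0.01 (-0.37 to 0.36) in Sox9cKO, and the list's medians were -0.15 and -0.14, in place of -0.65 and -0.67 for the same genes over all cells. Atf3 was still lower in Sox9con, at -1.18 (-1.38 to -0.98), and stood at -0.61 in Sox9cKO. Ankrd1 had -1.39 in Sox9con and -0.24 in Sox9cKO, and Ccn1 -1.16 and -0.32. The medians of the YAP and TEAD list were -0.22 and -0.07, in place of -0.19 and -0.35 for the same genes over all cells. Sox9 had -1.12 (-1.38 to -0.87) and -0.05 (-0.41 to 0.28).

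**Figure D4:**
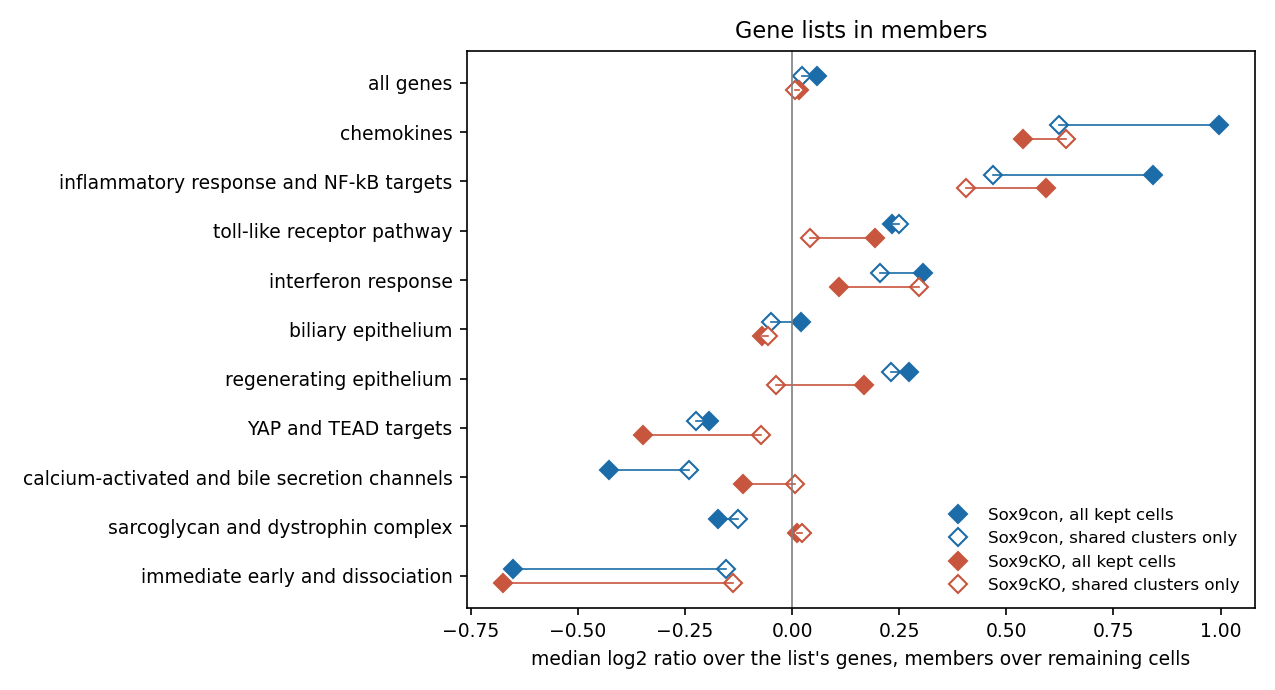
Median log2 ratio of members over remaining cells (x axis) for the genes of each list tested in the shared clusters, over all kept cells (filled) and within the clusters that hold at least 10% of members (open, joined by a line). The chemokine and inflammatory lists lie to the right of 0 in both, and the immediate early list moves from -0.65 and -0.67 to -0.15 and -0.14.

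Single clusters differed in how far members stood out. In the Sox9con cluster led by Ankrd1, where members were 11.3% of cells, Lcn2 had a log2 ratio of 1.99, Tnfaip2 1.74 and Nos2 1.97. In the cluster led by Msln, Lcn2 had 1.70 and Csf3 2.14, while Nos2 had 2 UMIs in members. In the Sox9cKO cluster led by Ces1c, whose leading genes include Ptgs2 and Nos2, members had Tnfaip2 at 0.48 and Ptgs2 at -0.00. In the Sox9cKO cluster led by Slit3, Csf3 had 1.70, Cxcl2 1.37 and Ptgs2 1.36.

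Members with and without Cxcl5 also differed in the genes beside it, and so did the remaining cells. A Cxcl5 UMI was found in 460 of 587 Sox9con members, and the other 127 had none. Csf3 stood at 130 CPM (112 to 151) in members with Cxcl5 and 18.5 CPM (6.77 to 40.2) in those without. Lcn2 stood at 671 and 372 CPM, and Tnfaip2 at 1553 and 803 CPM. For Cxcl2 the levels were 2135 and 1694 CPM, and for Cxcl3 79.3 and 73.8 CPM, which lay within each other's counting intervals. Members without Cxcl5 were thus low in Csf3 but held Cxcl3 at the level of the other members. Ly6a and Kcnn4 ran the other way, at 252 and 823 CPM with Cxcl5 and 514 and 1264 CPM without. Both are genes of the score, so a member without Cxcl5 had to be high in others. Only 6 Sox9cKO members had no Cxcl5 UMI, too few to compare. In Sox9con remaining cells Csf3 stood at 42.2 CPM with a Cxcl5 UMI and 10.6 CPM without, and Lcn2 at 211 and 95.3 CPM. Cxcl3 stood at 45.4 and 19.8 CPM there. Tnfaip2 stood at 786 CPM in such cells with Cxcl5, near the 803 CPM of members without it. In Sox9cKO remaining cells Lcn2 stood at 552 and 211 CPM. Higher Csf3 and Lcn2 beside a Cxcl5 UMI was therefore not particular to members. Among Sox9con cells with Cxcl5, both were still higher in members.

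Between the libraries, members labelled Sox9cKO had more of several of these transcripts than members labelled Sox9con, and so did the remaining cells. Csf3 in members stood at 294 CPM in Sox9cKO and 110 in Sox9con, a log2 ratio of 1.42 (1.14 to 1.70), and in remaining cells the ratio was 1.76 (1.53 to 1.99). Nos2 had 2.37 in members and 2.09 in remaining cells, and Ptgs2 2.31 and 2.04. Lcn2 had 0.87 (0.74 to 0.995) in members and 1.51 (1.42 to 1.60) in remaining cells. Cxcl2 differed little, by 0.21 in members and 0.28 in remaining cells. Ly6a was lower in the Sox9cKO library, by 2.05 in members and 1.62 in remaining cells, and Kcnn4 by 1.43 and 0.98. Ly6a and Kcnn4 are genes of the score, so the size of these values depends on the choice of members. Both genes were lower in Sox9cKO in members and in remaining cells, which together are all kept cells.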

How the data were processed

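The matrix that the authors deposited for each library holds UMI counts, whole numbers and not normalized, for every gene of every cell, per the file headers. The labels' protocols name the Evercode Whole Transcriptome kit, with split-pool barcoding of fixed cells, random hexamer and oligo(dT) primers. The submitters' processing notes name GRCm39. The aligner, the use of strand and the treatment of reads shared by genes are not given in the sources used here, so genes with overlapping antisense partners (such as Tnfaip2, Kctd1, Cd46 and Gm16685) and related chemokines are uncertain to that extent. Cells were kept with at least 500 genes, 1000 UMIs and at most 15% mitochondrial UMIs, which removed 27 Sox9cKO and 115 Sox9con cells.

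Scrublet, run in scanpy 1.11.5, marked 10 and 2 cells (0.369% and 0.057%), too few for it to have worked, and none were removed. The median Scrublet score was 0.0612 in Sox9cKO members and in remaining cells, and 0.0626 in both in Sox9con. Counts were summed over members and over remaining cells of a library, and log2 ratios of CPM used 0.5 counts added at the mean total. A count of 0 was compared through a floor of 3 counts over the group. Each library was clustered alone (Leiden). Ratios were tested on simulated data. Scaling factors of edgeR 4.0.16 (TMM) and DESeq2 1.42.0 served as alternatives.

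Members and gene lists were chosen with earlier results of these data known. Genes were named as the 12 highest with a ratio above 0, and the 8 lowest with one below 0, in both libraries, ranked in Sox9con among genes with at least 200 UMIs. The ranking was repeated without cells marked as another class. The score genes, Sox9 and list members were added, as were the 17 genes higher in both libraries, of which Gm16685, Eva1a and Pdzrn3 fell outside that rule and were named after their values were seen. The list of promoters holds no entry for Csf3, Cxcl5, Ly6a or Nos2.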

Additional observations from a re-analysis of the deposited data

Results flagged for a closer look

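Kcnma1 and Tead1 were picked from the named and list genes because they went opposite ways in the 2 libraries. The rule also asked for both counting intervals to leave out 0 and for every well to go as its library. The agreement of wells and the intervals over all cells are therefore part of the choice. Kcnma1, a calcium-activated potassium channel of large conductance, had a log2 ratio of members over remaining cells of -0.90 (-1.19 to -0.61) in Sox9con and 0.36 (0.15 to 0.57) in Sox9cKO. Within the clusters that held at least 10% of members it had -0.75 and 0.20 (-0.03 to 0.42). Tead1, a transcription factor partnered by YAP, had -0.19 (-0.30 to -0.08) in Sox9con and 0.65 (0.56 to 0.74) in Sox9cKO, and -0.07 (-0.19 to 0.05) and 0.58 within those clusters. The difference between the libraries was not tested, since each is 1 sample.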

How the results depend on the processing

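Each value was recomputed under 32 other settings, 3 of them added after the data were seen. Of 2170 recomputed ratios of 35 named genes, 1961 stayed within their counting interval, 199 moved beyond it and 10 that had been at least 2-fold apart changed sign. Ratios under 2-fold also changed sign in Sox9cKO, for Kcnb2 (-0.48, and 0.35 without Cxcl5 in the score), Sox9 (-0.10, and 0.21 thinned) and Cd46 (0.01, and -0.53 without well A11). Of the 10, with Cxcl5 left out of the score there were Nos2 in Sox9con (-0.20) and Fcgr2b in Sox9cKO (0.46). In Sox9cKO without cells marked as another class they were Stab2 (1.21) and Fcgr2b (0.40), without endothelial-marked cells alone Stab2 (1.16) and Fcgr2b (0.16), and within the clusters holding members Stab2 (1.41), Fcgr2b (0.17), Arhgap31 (0.49) and Dgki (1.41), all genes with 1 to 3 UMIs in Sox9cKO members. In the order Sox9con, Sox9cKO, the top 8% of the score gave shares of 11.7% and 3.17%, with 92 genes higher and 550 lower in Sox9cKO, and the top 16% gave 21.7% and 8.70%. Without Cxcl5 in the score the shares were 19.1% and 2.84%, with 18 and 113 genes higher, 601 lower in Sox9cKO and 6 higher in both. Without Kcnn4 they were 15.4% and 7.63%. Thinning to 2000 UMIs gave a Sox9cKO share of 8.06%, with 16 and 28 genes higher, 115 and 144 lower, and 9 higher and 44 lower in both. The stricter cell filter left 11 genes higher in both. Leaving out cells marked as another class left 154 genes lower in Sox9con and 74 in both, and leaving out endothelial-marked cells alone left 158 lower in Sox9con. A minimum of 100 UMIs a gene gave 61 and 111 higher, 454 and 667 lower, 26 higher and 214 lower in both, and a minimum of 500 gave 15 and 27, 110 and 137, 8 and 55. Within the clusters holding members, shares were 23.4% and 9.75%, with 11 and 15 genes higher, 32 and 73 lower, 4 higher and 2 lower in both. The largest share of members in 1 cluster of Sox9con was 67.0% with the stricter filter, 62.4% thinned, 44.2% without Cd14 in the score and 70.1% without the 5% highest Scrublet scores (53.0% in Sox9cKO). At resolution 1.0 it was 30.7% and 34.4%. Leaving out 1 well at a time gave shares of 14.6% to 19.5% in Sox9con and 4.85% to 6.62% in Sox9cKO, and 1 to 2 score genes at least 2-fold higher in both libraries when held out. For fewer genes or cells the cause is the setting itself, and for the others the cause was not tested. No paired analysis was possible because each group is 1 library. The 160 Sox9cKO members held 813182 UMIs and the 587 Sox9con members 1750991, which sets the counting intervals.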

Other observations

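Members rarely carried all 5 genes of the score. In Sox9con 36 of 587 members (6.13%) had a UMI of each, 173 of 4 genes, 261 of 3, 105 of 2 and 12 of 1, and in Sox9cKO the numbers were 7, 29, 64, 58 and 2 of 160. Proliferation genes were at low counts: Mki67 had 12 UMIs in Sox9con members and 8 in Sox9cKO members, and Top2a 13 and 16. Slc34a2, a phosphate transporter, was also high in members, with log2 ratios of 1.58 (1.10 to 2.05) in Sox9con and 1.37 (1.004 to 1.71) in Sox9cKO. The added EGFP sequence of the gene table had 1 UMI in members of each library, and 6 and 15 in the remaining cells of Sox9con and Sox9cKO.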
